A study of Mus musculus with 4 samples.

Results

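The 3 colony-stimulating factor genes Csf1, Csf2 and Csf3 and the 5 genes of their receptors, Csf1r, Csf2ra, Csf2rb, Csf2rb2 and Csf3r, were followed in RAW264.7 cells, a mouse macrophage line. They were chosen by symbol, and all 8 were found among the 22554 gene names that occurred once in each deposited table. The series holds 2 libraries of RAW264.7 cells grown in coculture with the mouse colon carcinoma line CT26, and 2 libraries of mock RAW264.7 cells kept without tumour cells. Replicate 1 of both groups stands in one table and replicate 2 of both in another, so coculture was set against mock within each table, here called a pair. RAW264.7 is an immortalised line transformed by a leukaemia virus, so it stands in for macrophages and is not a primary culture. The sources used here give neither the length of the coculture nor the way the tumour cells were removed.

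Colony-stimulating factors are secreted proteins that drive the survival, growth and maturation of myeloid cells. Macrophage colony-stimulating factor, from Csf1, acts through the receptor tyrosine kinase CSF1R, on which most macrophages depend. Granulocyte-macrophage colony-stimulating factor, from Csf2, acts through an alpha chain (Csf2ra) and the common beta chain (Csf2rb), and granulocyte colony-stimulating factor, from Csf3, through the receptor CSF3R, which is known mainly from neutrophils and their precursors. Activated macrophages and tumour cells are both known sources of the Csf2 and Csf3 products, and these messages are short-lived in many cells because of AU-rich elements in their 3' untranslated regions.

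The AU-rich stretches of Csf2 and Csf3 are shown because these were the ligand genes at least 2-fold higher in coculture in both pairs. Both were read from GENCODE transcripts on the mouse build GRCm38, 5' to 3' in DNA letters, with each ATTTA in capitals. The Csf2 stretch lies at chr11:54247325-54247354 on the minus strand, and the Csf3 stretch at chr11:98702988-98703017 on the plus strand.
Csf2: taaatATTTATTTATTTATTTATTTAtttt
Csf3: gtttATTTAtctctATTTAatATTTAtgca
The window of Csf2 held 5 overlapping copies of ATTTA and that of Csf3 held 3. Over the whole 3' untranslated region, searched on the sense strand with overlaps counted, Csf2 held 9 copies of ATTTA in 317 bases and Csf3 held 6 in 669 bases. The 790 genes whose 3' untranslated region was within 10% of the length of that of Csf2 included Csf2 itself. Of these, 0.127% had at least as many copies, which is Csf2 alone. Among the 1056 genes near the length of Csf3, itself included, 1.52% did. The longer motif TATTTAT, which contains ATTTA, occurred 9 times in Csf2 and 2 times in Csf3. Of the genes of like length, Csf2 and Csf3 included, 0.127% and 4.07% had at least as many copies. Over regions of any length, 27.5% of all 20862 genes with an annotated region had at least 1 copy. Csf1 held 4 copies of ATTTA in 2111 bases, a number that 48.2% of genes of like length, Csf1 included, reached. Among the receptor genes Csf1r held 3 copies, which 50.4% of genes of like length reached, Csf1r included. Csf2ra, Csf2rb, Csf2rb2 and Csf3r held 0.

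The beta chain genes Csf2rb and Csf2rb2 lie side by side on chromosome 15 and are near copies of each other, which bears on how reads can be shared out between them. Csf2rb encodes the common beta chain used by the receptors for granulocyte-macrophage colony-stimulating factor, interleukin-3 and interleukin-5, and Csf2rb2 encodes a beta chain, found in mice, that is specific to interleukin-3. Their coding sequences were 95.2% identical over 2631 aligned bases, with a longest identical run of 242 bases. The first line below is a coding stretch that both genes share letter for letter, at chr15:78348577-78348696 on the plus strand in Csf2rb and chr15:78284752-78284871 on the minus strand in Csf2rb2. The other lines are the stretch within 1 exon that differs most, at chr15:78338867-78338986 in Csf2rb and chr15:78294345-78294464 in Csf2rb2, with the 16 differing bases in capitals.
Csf2rb and Csf2rb2: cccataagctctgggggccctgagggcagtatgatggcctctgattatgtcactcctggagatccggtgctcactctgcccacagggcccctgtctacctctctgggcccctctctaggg
Csf2rb: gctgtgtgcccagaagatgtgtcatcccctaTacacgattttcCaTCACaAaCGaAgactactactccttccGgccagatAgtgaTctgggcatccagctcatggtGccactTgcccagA
Csf2rb2: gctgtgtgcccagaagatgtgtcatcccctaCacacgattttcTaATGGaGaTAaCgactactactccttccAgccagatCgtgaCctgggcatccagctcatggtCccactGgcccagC
Of all stretches of 100 bases in the Csf2rb transcript, 6.96% were found letter for letter in Csf2rb2, and 18.4% of stretches of 50 bases. How reads that match both genes were assigned is not stated, so the levels of these 2 genes are uncertain.

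Levels are given in the deposited FPKM, which scale the fragments of a gene to its length and to the size of the library. From the value that 1 read is worth in low genes, the libraries were estimated to rest on about 16200000 and 12200000 reads in coculture and 15400000 and 15800000 in mock. Of 10 macrophage markers, 9 reached 1 FPKM in every library, while Mertk did not exceed 0.028 FPKM in any. Of 16 epithelial and mesenchymal markers chosen for the tumour cells, Tagln alone reached 1 FPKM, the list summed to 2.23 and 1.43 FPKM in coculture and 2.71 and 1.64 FPKM in mock, and Epcam, Krt18, Cldn4, Cdh17 and Col3a1 were at 0 in all libraries. CT26 cells themselves were not profiled, so which of these markers they express was not measured. Of 10 granulocyte markers, 7 were at 0 in all libraries, among them Ly6g and Mpo, and S100a8 alone reached 1 FPKM, with 2.20 and 2.503 FPKM in coculture, against 1.33 and 0.162 FPKM in mock. Of 6 dendritic cell markers, Ccr7 alone reached 1 FPKM, with 3.81 FPKM in coculture replicate 2 and 0 in the other libraries, and 0 of 8 lymphoid markers did. The part of other cell types in the results was not tested. Differences are coculture minus mock in log2(FPKM + 1), a scale that understates the change of low genes, and values after ± are limma's moderated standard errors over 2 pairs. A gene was tested if it had at least 1 FPKM in at least 2 libraries, and p-values were adjusted by the Benjamini-Hochberg method over all 10202 genes tested. Statements on whether the groups overlap compare libraries across the 2 tables, which may be normalized separately. How many of all genes have groups that do not overlap was not counted.

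Csf3 rose in the coculture libraries, Csf2 was detected there alone without passing the test, and Csf1 stayed below 1 FPKM in both groups. Of the 8 genes, 6 reached the level needed for testing, 1 of these rose and 0 fell. Over all genes tested, 0.127% rose and 0% fell. Both Csf2 and Csf3 reached that level through the coculture libraries alone, so some difference was built into their selection. The plot of levels by library shows the 8 genes side by side.

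**Figure D1:**
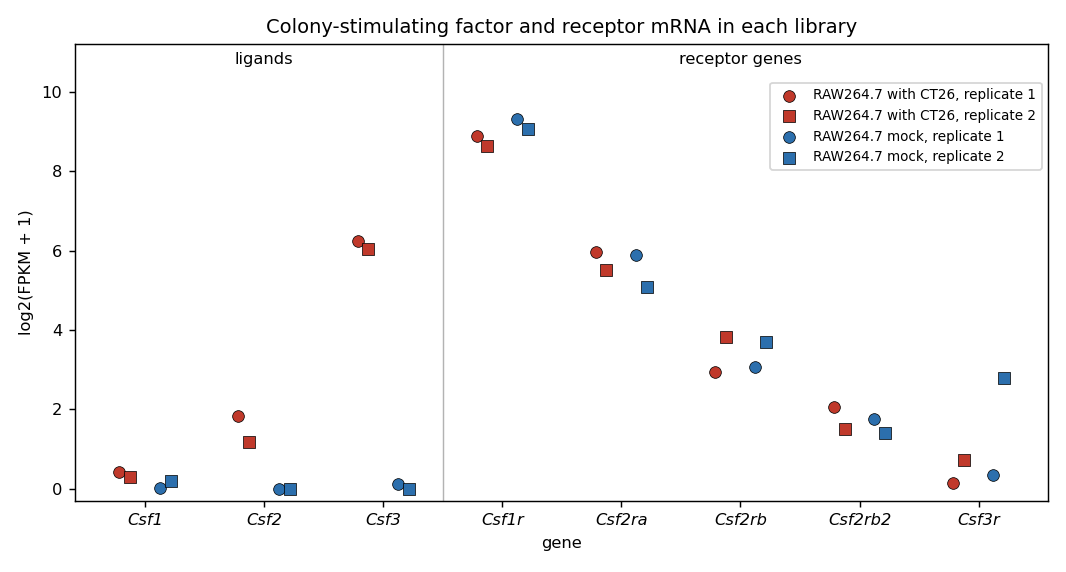
The level of each ligand and receptor gene as log2(FPKM + 1) in each library of RAW264.7 cells with CT26 cells (red) and mock cells (blue), with circles for replicate 1 and squares for replicate 2. Csf3 stands at 74.9 and 64.4 FPKM in coculture against 0.0956 FPKM and 0 in mock, while Csf1r is the highest of the 8 in every library.

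Csf3 had 74.9 and 64.4 FPKM in coculture replicates 1 and 2, against 0.0956 FPKM and a listed 0 in mock replicates 1 and 2. Both coculture libraries were far above both mock libraries, where the gene was at about 2 reads and 0 reads. The difference was 6.11 in pair 1 and 6.03 in pair 2, or 6.07 ± 0.15 in the fit (n = 2 pairs, limma adjusted p = 0.00771), the smallest p-value of all genes tested. The summed tumour cell markers were mostly Tagln, which had 1.59 and 1.34 FPKM in coculture, against 1.93 and 1.64 FPKM in mock. Which of the markers CT26 cells express was not measured, so the sum does not give the amount of CT26 RNA. The part of CT26 RNA in the Csf3 level was not tested. By level, Csf3 ranked 1051st and 1161st of all genes in coculture, against 11818th in mock replicate 1. The call was lost with no filter on low values (limma adjusted p = 0.155), and without any single library, fitted across the 2 tables with no pairing (limma adjusted p between 0.254 and 0.384), where the difference stayed between 5.97 and 6.18.

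Csf2 had 2.57 and 1.27 FPKM in coculture and was listed at 0 in both mock libraries. The groups did not overlap, but the coculture values rest on about 33 and 12 reads. The difference was 1.51 ± 0.26, with 1.83 in pair 1 and 1.18 in pair 2, and did not pass (limma adjusted p = 0.159). With a pseudocount of 0.1 in place of 1 the difference was 4.25 (limma adjusted p = 0.122). The annotation places an antisense gene, Gm12223, over 96 exonic bases of Csf2, and whether counting used strand is not stated.

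Csf1 had 0.334 and 0.222 FPKM in coculture, against 0.0147 and 0.143 FPKM in mock. Both coculture values were above both mock values, yet none reached 1 FPKM and the gene was not tested. The lowest value corresponds to about 1 read, and the others to about 29, 14 and 12 reads. Pair 1 differed by 0.40 and pair 2 by 0.10. The macrophage colony-stimulating factor message was the lowest or next to lowest of the 8 in 3 of the 4 libraries, beside a receptor message that was the highest.

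Csf2 and Csf3 were the members at least 2-fold higher in both pairs, against 1.02% of all genes tested. Both passed the filter through coculture alone and were near 0 in mock. Their direction and a rise of this size were thus largely set by the filter and are no independent result. None was 2-fold lower in both, against 0.353% of all genes. By direction alone, Csf2, Csf3, Csf2ra and Csf2rb2 were higher in both pairs, as were 21.5% of all genes tested, and Csf1r was lower in both, as were 42.2%. At an unadjusted p under 0.05 the higher members were Csf2 and Csf3 and the lower one Csf1r, where 5.26% of all genes were higher and 9.45% lower.

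**Figure D2:**
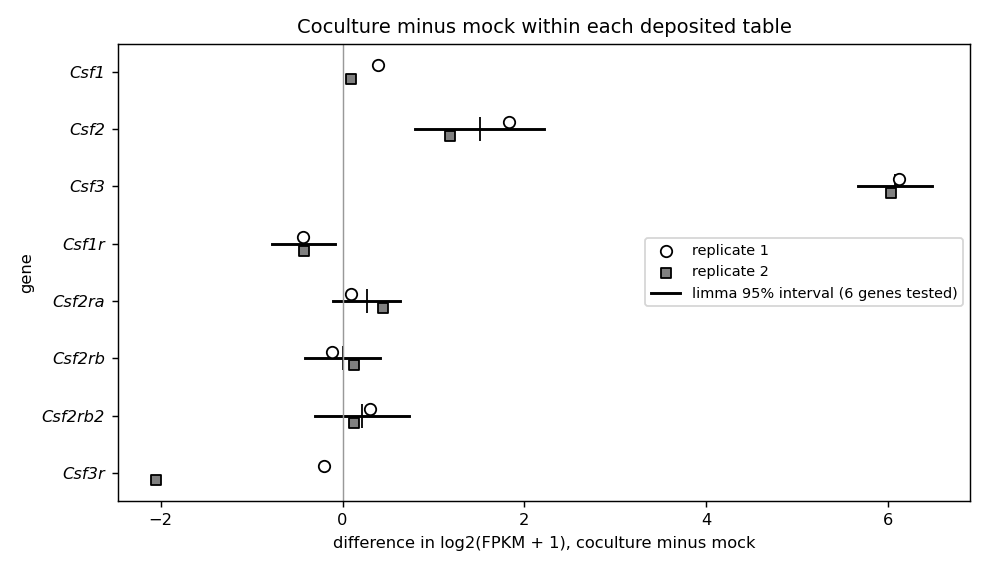
Coculture minus mock in log2(FPKM + 1) for each gene, with a circle for replicate 1, a square for replicate 2 and, for the 6 genes tested, limma's 95% interval, unadjusted for the number of genes. Csf3 lies near 6, Csf2 between 1.18 and 1.83, Csf1r at -0.43 in both pairs, and the intervals of Csf2ra, Csf2rb and Csf2rb2 cross 0.

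Csf1r, the receptor for macrophage colony-stimulating factor, had 472 and 397 FPKM in coculture, against 637 and 535 FPKM in mock. Both coculture values were below both mock values. Within the pairs the level in coculture was 0.741 and 0.743 times that in mock, a difference of -0.43 in each. The fitted difference was -0.43 ± 0.13 (95% interval -0.78 to -0.09 before adjustment) and did not pass (limma adjusted p = 0.282). The median difference over all genes was -0.07. Csf1r was the 88th and 95th most abundant gene in coculture, against the 41st and 63rd in mock. In bulk RNA, fewer cells that express a gene and less of its RNA per cell cannot be told apart. The gene Hmgxb3 on the other strand shares 873 exonic bases with Csf1r.

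Csf2ra, the alpha chain that binds granulocyte-macrophage colony-stimulating factor, had 61.7 and 44.7 FPKM in coculture, against 57.9 and 32.7 FPKM in mock. The groups overlapped, since mock replicate 1 lay above coculture replicate 2. The difference was 0.27 ± 0.14 (95% interval -0.10 to 0.63, limma adjusted p = 0.440), with 0.09 in pair 1 and 0.44 in pair 2.

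Csf2rb, the common beta chain gene, had 6.69 and 13.05 FPKM in coculture, against 7.34 and 11.9 FPKM in mock. The replicates differed more than the groups, and the pairs went opposite ways, by -0.12 and 0.12. The fitted difference was 0.0034 ± 0.15 (95% interval -0.41 to 0.42, limma adjusted p = 0.994). Csf2rb2, the interleukin-3 beta chain gene, had 3.20 and 1.86 FPKM in coculture, against 2.40 and 1.63 FPKM in mock. Its groups overlapped and its difference was 0.21 ± 0.19 (95% interval -0.30 to 0.73, limma adjusted p = 0.641). Because reads may be shared between the 2 copies, their FPKM were also summed, which gave 9.89 and 14.9 FPKM in coculture and 9.74 and 13.5 FPKM in mock. The sum differed by 0.08 ± 0.14 (95% interval -0.30 to 0.45, limma adjusted p = 0.825).

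Csf3r, the receptor for granulocyte colony-stimulating factor, had 0.107 and 0.667 FPKM in coculture, against 0.274 and 5.89 FPKM in mock. Mock replicate 2 stood apart from the other 3 libraries, with about 335 reads against 6 to 29. Since only that library reached 1 FPKM, the gene was not tested. It was lower in coculture in both pairs, by -0.20 in pair 1 and -2.05 in pair 2. With no filter on low values its difference was -1.13 ± 0.51 (limma adjusted p = 0.523). The 10 granulocyte markers summed to 0.162 FPKM in mock replicate 2, the lowest sum of the 4 libraries, against 1.44 FPKM in mock replicate 1 and 2.41 and 2.73 FPKM in coculture. S100a8 supplied most of each sum, and the cause of the Csf3r value in mock replicate 2 was not tested.

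Per length of gene, the order in coculture was Csf1r, Csf3, Csf2ra, Csf2rb, Csf2rb2 and Csf2, followed by Csf1 and Csf3r in an order that differed between the libraries. In mock the order began with Csf1r, Csf2ra and Csf2rb, and Csf2 was the lowest, level with Csf3 at 0 in replicate 2. The coculture ranges of Csf2rb2 and Csf2 overlapped, at 1.86 to 3.20 FPKM and 1.27 to 2.57 FPKM, as did those of Csf1 and Csf3r. In coculture Csf3 lay just above Csf2ra, at 64.4 to 74.9 FPKM against 44.7 to 61.7 FPKM, whereas in mock it was below 0.1 FPKM in both libraries.

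The genes most like each tested member were found by the distance between their coculture and mock levels, in log2(FPKM + 1) around each gene's own mean within a pair, over the 4 libraries. For Csf3 the nearest were Il1b, which encodes interleukin-1 beta, at a distance of 0.865, Acod1, which makes itaconate, at 1.03, and Cxcl2, a neutrophil-attracting chemokine gene, at 1.78. These genes were chosen for a difference close to that of Csf3, so the sizes and p-values describe them and are no independent result, and Il1b passed the filter through coculture alone. Il1b rose by 6.66 ± 0.32 (limma adjusted p = 0.0270) and Cxcl2 by 7.54 ± 0.51 (limma adjusted p = 0.04995), while Acod1 differed by 6.31 ± 0.47 (limma adjusted p = 0.0543). Their pairs were less even than those of Csf3, with Il1b at 6.06 and 7.25 and Cxcl2 at 8.59 and 6.48. The Il1b and Cxcl2 calls were lost with no filter (limma adjusted p = 0.210 and 0.244), with 1 prior variance for all genes (0.0901 and 0.101), with no pairing (0.277 and 0.806) and without any single library.

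For Csf2 the nearest genes were C5ar1, the complement C5a receptor gene, at 0.0894, Rab11fip1, an endosomal recycling gene, at 0.110, and Rhbdf2, which encodes the iRhom2 partner of the protease ADAM17, at 0.127. All 3 differed by 1.47 and did not pass. C5ar1 had 46.7 and 27.1 FPKM in coculture, so its likeness to Csf2 is in the difference and not in the level. For Csf1r the nearest were Pcif1, Dusp3 and Tab1, at distances of 0.00844 to 0.0145 and with differences from -0.44 to -0.42. The neighbours of Csf2ra (Fth1, Zfyve16 and Cdkn2aipnl), Csf2rb (Aktip, Gigyf2 and Ogdh) and Csf2rb2 (P2rx4, Snrpa1 and Kcmf1) lay within 0.0079 of them, in the dense part of the distribution where differences are small.

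**Figure D3:**
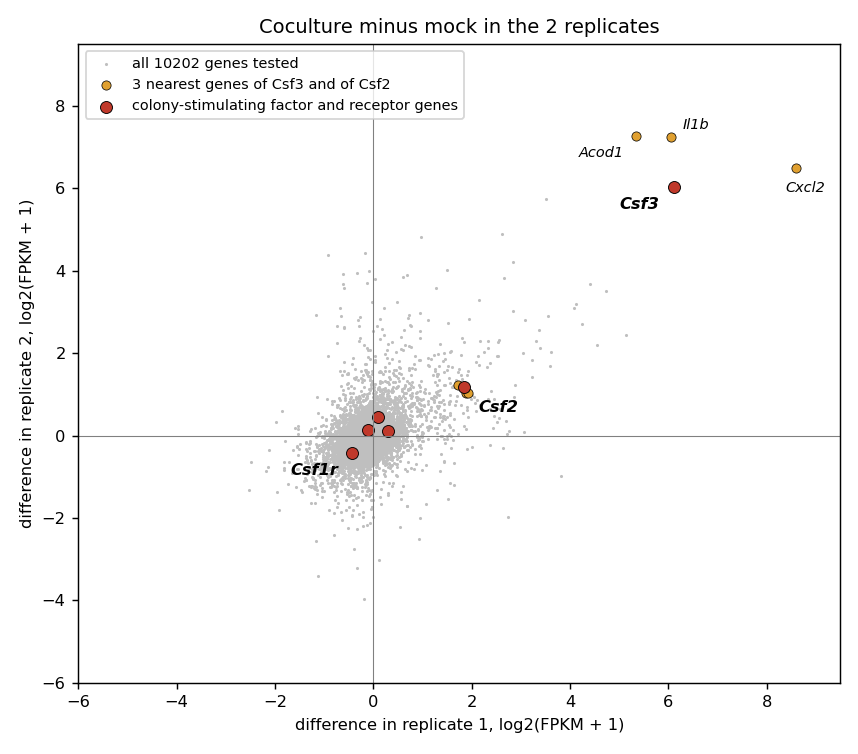
Coculture minus mock in log2(FPKM + 1) in replicate 1 (horizontal) and replicate 2 (vertical) for the 10202 genes tested (grey), the 6 colony-stimulating factor and receptor genes among them (red) and the 3 nearest genes of Csf3 and of Csf2 (orange). Csf3 lies far from the bulk of genes at 6.11 and 6.03, near Il1b, Acod1 and Cxcl2, and Csf1r lies within the bulk.

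Genes around the factors and receptors were examined in 7 lists, chosen with earlier results of these data known. Among 17 related growth factors and receptors, 4 were expressed enough to be tested, and 0 rose and 0 fell. Kitl, the stem cell factor gene, had 2.02 and 1.41 FPKM in coculture, against 4.58 and 3.61 FPKM in mock, a difference of -0.91 ± 0.18 (limma adjusted p = 0.186). Crlf2, a chain of the receptor for thymic stromal lymphopoietin, differed by 0.37 ± 0.20 (limma adjusted p = 0.455). Il34, which encodes the other ligand of CSF1R, had 0.201 and 0.220 FPKM in coculture, against 0.106 FPKM and a listed 0 in mock. Il3, Il5, their alpha chain genes Il3ra and Il5ra, and Kit were listed at 0 in all 4 libraries, which leaves Csf2ra as the only alpha chain gene of the common beta chain that was detected.

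Of 16 signal transducers below the receptors, all were tested, and 0 rose and 0 fell; the median difference was -0.03, against -0.07 over all genes. The kinase gene Src had 2.996 and 1.81 FPKM in coculture, against 0.151 and 0.082 FPKM in mock, a difference of 1.59 ± 0.23 (limma adjusted p = 0.125). The related kinase gene Lyn differed by 0.42, and Pik3r1, a regulatory subunit of phosphoinositide 3-kinase, by -0.84 (limma adjusted p = 0.297 and 0.186). Of 12 feedback inhibitors, 10 were tested, 1 rose and 0 fell, with a median of -0.27. The shares that rose and fell over all genes tested were 0.127% and 0%. Socs3, which restrains signalling from CSF3R among other receptors, rose by 2.94 ± 0.12 (limma adjusted p = 0.0270), to 92.3 and 142 FPKM in coculture, against 11.97 and 16.5 FPKM in mock. Cish, a STAT5 target that restrains the same pathways, had 2.88 and 1.87 FPKM in coculture, against 0.0301 and 0.042 FPKM in mock. Its difference was 1.69 ± 0.24 (limma adjusted p = 0.123). Both Src and Cish reached the level needed for testing through the coculture libraries alone, so some difference was built into their selection. Dok2, an adaptor gene, differed by 0.77 and Sla, an adaptor that limits receptor levels, by -0.63 (limma adjusted p = 0.160 and 0.244). The Socs3 call was lost with no filter (limma adjusted p = 0.173), with 1 prior variance for all genes (0.0901) and with no pairing of the libraries (0.380), and without any single library.

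Of 9 STAT5 and growth target genes, 8 were tested, and 0 rose and 0 fell. Their median difference was 0.71, or 0.77 in pair 1 and 1.30 in pair 2, against -0.07 over all genes. By direction, 5 of the 8 were higher in both pairs and 2 were lower in both, against 21.5% and 42.2% of all genes tested. The list was chosen with earlier results of these data known, so its median and these counts describe it and are no independent result. Myc had 43.3 and 36.9 FPKM in coculture, against 5.16 and 1.03 FPKM in mock, a difference of 3.53 ± 0.35 (limma adjusted p = 0.0707). The kinase gene Pim1 had 82.2 and 26.4 FPKM in coculture, against 5.89 and 7.48 FPKM in mock (limma adjusted p = 0.161). Bcl2l1, which encodes the survival protein BCL-XL, differed by 1.52 ± 0.20 (limma adjusted p = 0.114), and Pim2 by 0.72 ± 0.22 (limma adjusted p = 0.290).

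Of 18 transcription regulators of these genes, 17 were tested and 0 rose or fell, with a median of 0.17. Ets2 had 167 and 51.7 FPKM in coculture, against 61.2 and 21.4 FPKM in mock (1.33 ± 0.12, limma adjusted p = 0.0623). The NF-kappaB subunit gene Rel and the early response gene Egr1 differed by 1.09 and 1.43, and Fli1, an ETS family gene, by -1.17 (limma adjusted p between 0.150 and 0.230). Of 9 regulators of mRNA decay and stability, all were tested and 0 rose or fell, with a median of 0.02. Zc3h12a, which encodes the RNase regnase-1, had 67.5 and 42.3 FPKM in coculture, against 5.62 and 6.37 FPKM in mock (2.96 ± 0.23, limma adjusted p = 0.0544, and between 0.0127 and 0.0470 under 5 of the alternative settings). Zfp36, which encodes tristetraprolin, a protein that binds AU-rich elements such as those printed for Csf2 and Csf3, had 49.6 and 101 FPKM in coculture, against 28.8 and 35.9 FPKM in mock (1.12 ± 0.20, limma adjusted p = 0.166). Its relative Zfp36l2 differed by -0.69 ± 0.11 (limma adjusted p = 0.143), and Khsrp by -0.23. Of 5 genes of receptor shedding, 4 were tested and 0 rose or fell. Rhbdf2 had 58.2 and 24.4 FPKM in coculture, against 14.6 and 11.5 FPKM in mock, while Adam17, the protease that sheds CSF1R, and Adam10 differed by 0.26 and -0.29 (limma adjusted p = 0.147, 0.407 and 0.360 for the 3 genes).

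**Figure D4:**
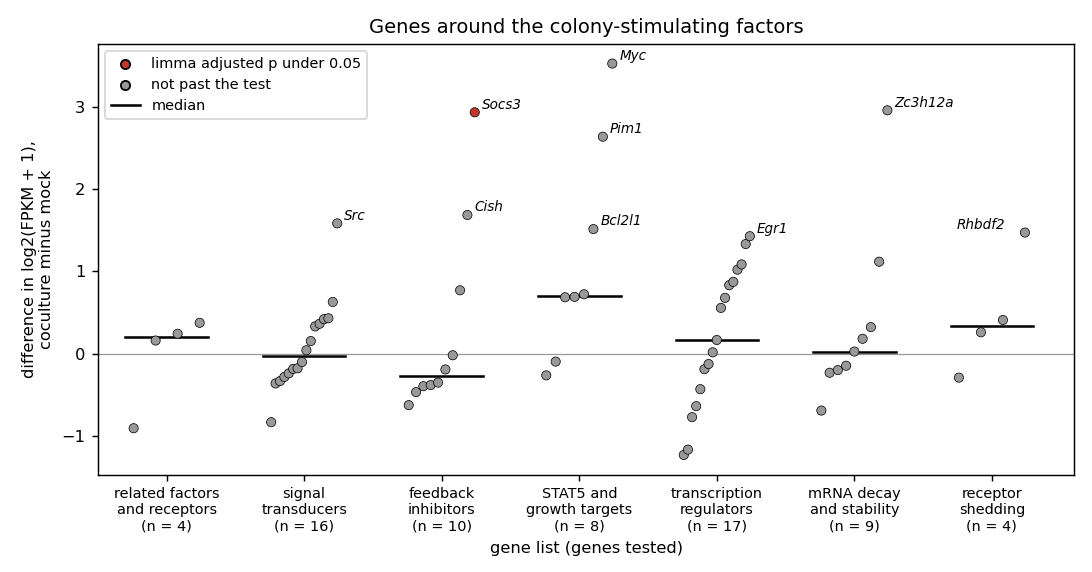
Coculture minus mock in log2(FPKM + 1), fitted over both pairs, for the tested members of the 7 gene lists, each point a gene and each line a median. Socs3 alone passed the test, at 2.94, while Myc, Zc3h12a, Pim1, Cish, Src and Bcl2l1 lay above 1.5 without passing. Cish and Src reached the level needed for testing through coculture alone.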

How the data were processed

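Messenger RNA libraries of RAW264.7 cells, 2 cocultured with CT26 cells and 2 mock, were compared. The authors deposited FPKM in 2 tables, 1 per replicate number; the submitters' processing notes name Trim Galore, Subread, featureCounts and the human build hg38, while the symbols in the tables are those of mouse genes. The sources used here do not give versions, annotation, gene lengths or totals. Unnamed rows (23) and repeated names (287 rows) of the first table were left out.

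FPKM were used as deposited, as log2(FPKM + 1), and fitted in limma 3.58.1 (R 4.3.3, trended prior, two-sided) with the replicate number as a block, since each table may carry its own normalization; a fit leaves 1 residual degree of freedom beside a prior of 3.43. Same-numbered libraries deviated together (correlation 0.76 across genes). A gene was called at an adjusted p under 0.05. The script was tested on simulated data. Labels do not say whether replicates are separate cultures, so p-values reflect the spread between these 4 libraries alone, and that may be technical. Reads were estimated from the lowest FPKM steps with exon lengths of GENCODE M21; they are approximate and cover counting error only. Sequences come from the same annotation, with Biopython 1.88 for the alignment. The RefSeq promoter table held no Csf3, Csf1r or Csf2rb entry, and no promoter was used.

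The members and lists were chosen with earlier results of these data known. Named genes were the 8 members, the 3 nearest genes of each tested member (mean FPKM 2 or more, no predicted or clone-based symbol), and up to 4 genes per list that differed most in the same direction in both pairs; Il34, Il3, Il5, Il3ra, Il5ra and Kit were added after their values were seen, and 1 gene that the rule named is not reported here. Alternatives varied the pseudocount, filter, scaling, prior, block and libraries.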

Additional observations from a re-analysis of the deposited data

How the results depend on the processing

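Csf3 stayed higher in coculture under all 13 alternatives, with differences from 5.97 to 8.96, and passed the test in 8 of them. With no filter on low values 0 of the 8 genes passed, and 0 passed when any single library was left out. Without the replicate block, that is with no pairing, Csf3 still passed (limma adjusted p = 0.0415). Csf2 was higher under all 12 alternatives that kept it, and Csf1r lower under all 13 (-0.56 to -0.31); neither passed in any. Over all genes, 13 rose and 0 fell. The number that rose was 22 with a pseudocount of 0.1, 0 with no filter (1620 genes of either direction at an unadjusted p under 0.05), 25 at a minimum of 5 FPKM or after rescaling to a common total, 85 after median centring, 43 after quantile normalization, and 1 with 1 prior variance or with no replicate block. The number that fell was 1 at a minimum of 5 FPKM or after rescaling, 18 after median centring and 3 after quantile normalization. Without any single library 0 rose (176 to 523 of either direction at an unadjusted p under 0.05). Of the members, 1 in place of 2 was 2-fold higher in both pairs at a minimum of 5 FPKM, which leaves out Csf2, and after quantile normalization. Rescaling turned Csf2rb, Aktip and Gigyf2 each to -0.046. Ogdh was 0.061 after median centring and 0.037 after quantile normalization, against -0.0041. Rescaling and median centring shift whole libraries, and the median difference over all genes moved from -0.07 to -0.12 and -0.0063. Why Ogdh changed sign under quantile normalization was not tested. Leaving out a library gives up the pairing and crosses the tables: Csf2ra then ranged from -0.14 to 0.67, Csf2rb from -0.43 to 0.44, Csf2rb2 from -0.063 to 0.49, the sum of Csf2rb and Csf2rb2 from -0.20 to 0.35, Aktip from -0.10 to 0.11, Dusp3 from -0.87 to 0.024, Fth1 from -0.59 to 1.12, Gigyf2 from -0.17 to 0.18, Ogdh from -0.24 to 0.23 and Sla from -1.77 to 0.51. Of the 42 other named genes, 6 changed sign in this way and a further 16 moved by over 1.5 times, among them Ets2 (0.50 to 2.17), Fli1 (-1.96 to -0.39), Pim2 (0.10 to 1.34) and Zfp36 (0.61 to 1.63). Calls were also gained: Zc3h12a and Acod1 passed with a pseudocount of 0.1, at a minimum of 5 FPKM and under each of the 3 scalings, Myc, Bcl2l1, C5ar1 and Ets2 after median centring, and Ets2 after quantile normalization. Depth limits Csf1, Csf2 and Csf3r, which rest on few reads in most libraries.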
